A study of Mus musculus with 29 samples.

Results

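The genes described are the clustered histone genes as their symbols name them, the linker histone genes H1f and the core histone genes H2ac, H2bc, H3c and H4c followed by a number. Of 61 such symbols in the deposited count tables, 55 had 10 or more reads summed over the 29 libraries and were kept, out of 55401 gene entries with 55291 distinct symbols in all. They are 10 H1, 12 H2A, 13 H2B, 10 H3 and 10 H4 genes. The genes were thus chosen by their summed reads, and the values at the limit are given as description. H1f7 with 22 reads and H2ac14 with 30 reads lay just inside it, and the 6 symbols outside it, H2ac1, H2ac18, H2ac19, H2bc18, H3c13 and H3c14, had 0 reads. Of the 55 genes, 46 lie in the large cluster on chromosome 13, 5 in the smaller cluster on chromosome 3 and 4 elsewhere. The name "replication-dependent clusters" does not hold for every one of them. H1f0 and H1f10 are replication-independent linker histones outside the clusters, and H1f6, H1f7, H1f8 and H2bc1 are known from germ cells.

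The study measured RNA in mesenchymal cells next to the bile duct of the mouse, sorted from the common bile duct of single animals at about 1000 cells each. In 6 libraries the animals carried Gli1:CreERT2, which acts in Gli1-expressing cells, with the Rosa26:lox-STOP-lox-tdTomato reporter: 3 were uninjured and 3 were taken 4 days after bile duct ligation (BDL), without a sham-operated group. The other 23 libraries all carried Pdgfra:CreERT2, which acts in Pdgfra-expressing cells, with the same reporter. There were 5 wild type libraries, 4 of SmoFF and 3 of SmoM2, 3 of Ctnnb1FF, 2 each of Gli2FF and Gli3FF, and 4 of Gli2FFGli3FF, where FF stands for the floxed alleles of a gene and SmoM2 for the active form of Smo, the Hedgehog signal transducer. Gli2 and Gli3 are the transcription factors at the end of that pathway, and Ctnnb1 encodes beta-catenin. The labels name no animal ages, tamoxifen timing or floxed exons, and wild type replicate 5 is described in 1 label with the SmoFF allele while its title and genotype label say wild type. In these bulk libraries fewer cells of a type and less RNA per cell cannot be told apart.

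Histones are the proteins around which DNA is wound. Pairs of H2A, H2B, H3 and H4 form the core of the nucleosome, and H1 binds the linker DNA between cores. The clustered genes are transcribed mainly in S phase, when new DNA needs packing, under the coactivator NPAT, and their messenger RNAs normally end in a short stem-loop instead of a poly(A) tail. The stem-loop is bound by SLBP, and cutting after it needs the U7 small nuclear ribonucleoprotein, while transcripts that read past it can be cut and polyadenylated further on. In resting or differentiated cells such polyadenylated forms and the replacement histones, such as H3f3a and H3f3b, take a larger part.

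The end of the messenger RNA is shown first, since it decides whether a library primed on poly(A) can capture a transcript. The stem-loop, searched for by its consensus in the GENCODE M21 transcripts, was found in the annotated transcripts of 31 genes and not in those of 24, among them H1f0, H1f10 and H2bc4. Others of the 24 have short annotated transcripts, such as H4c12 (312 bases) and H3c11 (411 bases), which may end before a stem-loop. A stem-loop not found is therefore not shown to be absent from the gene. Of the 31, 2 (H4c2 and H4c11) had a form that is not printed here. Another 18 shared the stem-loop of H1f2, H2ac11 and H2bc8, 6 that of H3c3, 4 that of H4c4, and 1 that of H4c1. Each is printed 5′ to 3′ with 5 flanking bases on either side, and capitals mark the 6 paired bases of each arm of the stem.
H1f2: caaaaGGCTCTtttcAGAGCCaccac
H2ac11: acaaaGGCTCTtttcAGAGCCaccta
H2bc8: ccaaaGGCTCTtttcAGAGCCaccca
H3c3: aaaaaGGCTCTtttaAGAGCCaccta
H4c4: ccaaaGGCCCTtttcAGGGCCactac
H4c1: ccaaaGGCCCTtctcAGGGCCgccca
In 17 genes the annotated transcript ran on for more than 100 bases past the stem-loop, as in H4c4 (770 bases) and H1f2 (840 bases). In 14 it ended within 100 bases, as in H2ac11 (23 bases) and H3c3 (74 bases). The median number of reads over all libraries was 2138 in the first set, 589.5 in the second and 852.5 in the genes without a stem-loop found. This is a description of the annotation and of total reads, and carries no test.

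Promoters are shown for 4 genes on which the results below turn, from 250 bases before to 50 after the start (RefSeq, GRCm38.p6). H4c4 (chr13:23581318-23581617, + strand) and H4c3 (chr13:23698409-23698708, − strand) are H4 genes that rose in Ctnnb1FF and in Gli2FFGli3FF, H2ac11 (chr13:22042900-22043199, − strand) rose after ligation, and H1f0 (chr15:79027962-79028261, + strand) fell in 3 genotypes. Capitals mark every TATAAA (or TTTATA on the other strand), every CCAAT (or ATTGG), every octamer ATTTGCAT (or ATGCAAAT) and every H1 box AAACACA (or TGTGTTT), which may overlap.
H4c4: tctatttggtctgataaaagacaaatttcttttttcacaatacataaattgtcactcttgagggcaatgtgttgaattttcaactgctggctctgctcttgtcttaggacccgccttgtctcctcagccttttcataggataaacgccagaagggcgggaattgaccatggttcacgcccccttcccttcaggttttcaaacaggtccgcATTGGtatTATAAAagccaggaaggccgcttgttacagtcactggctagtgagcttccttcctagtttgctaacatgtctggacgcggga
H4c3: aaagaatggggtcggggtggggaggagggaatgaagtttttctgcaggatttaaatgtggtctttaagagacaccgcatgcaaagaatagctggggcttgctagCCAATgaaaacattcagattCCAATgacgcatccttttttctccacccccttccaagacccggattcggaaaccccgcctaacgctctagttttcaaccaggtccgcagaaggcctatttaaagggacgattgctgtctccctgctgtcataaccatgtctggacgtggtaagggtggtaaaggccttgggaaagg
H2ac11: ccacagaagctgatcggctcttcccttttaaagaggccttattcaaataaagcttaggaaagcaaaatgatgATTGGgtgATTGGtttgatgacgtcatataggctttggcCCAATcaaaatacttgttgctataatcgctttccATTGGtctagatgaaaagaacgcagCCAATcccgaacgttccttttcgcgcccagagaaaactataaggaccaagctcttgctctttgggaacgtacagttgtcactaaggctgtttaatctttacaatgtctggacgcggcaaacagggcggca
H1f0: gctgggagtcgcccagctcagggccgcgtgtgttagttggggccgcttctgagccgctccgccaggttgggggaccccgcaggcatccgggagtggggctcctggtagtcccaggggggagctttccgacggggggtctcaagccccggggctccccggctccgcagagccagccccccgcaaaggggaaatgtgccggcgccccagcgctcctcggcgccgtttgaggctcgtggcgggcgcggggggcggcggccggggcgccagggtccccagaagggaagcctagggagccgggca
Promoters were found for 49 of the 55 genes. TATAAA occurred in 28 of the 49 (57.1%, against 13.6% of all 32851 promoters of that length) and CCAAT in 40 (81.6% against 37.4%). CCAAT was in all 11 H2A, all 11 H2B and all 8 H3 promoters, and in 3 of 9 H4 promoters. The octamer was in 11 (22.4% against 1.74%), 5 of them H2A and 6 H2B genes. AAACACA was in 8 (16.3% against 7.18%), 5 of them among the 10 H1 genes. A match in this window describes its letters and is no measured binding.

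Several libraries went against their labels or stood apart, which touches the results that follow. Every wild type and SmoM2 library had Xist, the RNA of the inactive X chromosome, at 0.169 CPM (reads per 1e6 of the library size, scaled by the TMM method) or less and Y-linked genes (Ddx3y, Eif2s3y, Kdm5d and Uty) at a sum of 91.8 CPM or more. All 3 Ctnnb1FF libraries had Xist at 14.1 to 60.7 CPM and Y-linked genes at 0.25 CPM or less, so that this genotype and sex cannot be told apart. All 4 Gli2FFGli3FF libraries had Xist at 6.17 to 46.3 CPM, with Y-linked genes at 1.74 to 200 CPM. This genotype thus also differed from wild type in sex-linked RNA. In 7 libraries (SmoFF 1 and 4, Gli2FF 2, Gli3FF 2, and Gli2FFGli3FF 1, 3 and 4) both were at 5 CPM or more, although the labels take each library from 1 animal. Total counts were 15021796 to 38301189 per library. The ribosomal RNA locus CT010467.1 took 13.4 to 29.4% of them in wild type, 28.0 to 34.4% in Ctnnb1FF and 38.4 to 50.03% in Gli2FFGli3FF. The targeted genes were lower in their own genotypes, but for Gli2, Gli3 and Ctnnb1 also in others. Smo was at 6.8 to 9.0 CPM in SmoFF against 22.6 to 36.2 in wild type, Gli3 at 12.3 to 14.4 in Gli3FF and 2.8 to 7.6 in Gli2FFGli3FF against 30.7 to 44.9, and Ctnnb1 at 38.0 to 47.9 in Ctnnb1FF against 53.2 to 64.2. Gli2 was at 1.6 to 6.4 CPM in Gli2FFGli3FF and at 6.9 to 12.8 in Gli2FF, whose higher library overlapped the wild type range of 12.7 to 20.9. In Ctnnb1FF Gli3 was at 8.35 to 16.2 CPM and Gli2 at 5.55 to 13.4 CPM, and in Gli3FF Ctnnb1 was at 37.6 to 45.5 CPM, so that these levels do not mark the deletion alone.

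A few genes held most histone reads. The 55 genes had 254911 reads in all, of which H1f0, H2bc4, H1f2, H4c4 and H1f4 gave 76.3%. The annotated transcripts of these 5 are 1138 to 2055 bases long, against a median of 536.5 bases in the other 50 genes. Per kilobase of transcript, the mean level in wild type was highest for H1f0 (60.9 CPM per kb), then H2bc4 (30.2), H1f2 (23.6), H4c4 (6.16) and H1f4 (5.42). In Ctnnb1FF the order began with H2bc4 (101.1 CPM per kb), H4c4 (78.3) and H4c8 (62.8), and in Gli2FFGli3FF with H2bc4 (118), H4c8 (41.9) and H4c4 (41.6). The last pair did not differ beyond the spread between libraries, in which CPM ran from 15.8 to 27.6 for H4c8 on 470 bases and from 36.1 to 60.1 for H4c4 on 1138 bases. H1f0 thus stood first of all histone genes in wild type and in place 5 in Gli2FFGli3FF (30.8 CPM per kb).

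Near-identical copies limit how far single genes can be told apart. The median share of a gene's 50-base stretches that also occurred in another transcript was 1.13% for H1, 34.2% for H4, 43.8% for H2B, 57.2% for H3 and 66.0% for H2A genes. It was 10.2% for H4c4, 5.68% for H1f0 and 30.6% for H2bc4, but 78.9% for H2ac11 and 87.6% for H3c11. Of the 6 symbols at 0 reads, 5 had 100% of their stretches elsewhere and H2ac1 had 23.8%. The division of reads among the H2A and H3 genes is therefore uncertain, and their class sums are given beside them.

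**Figure D1:**
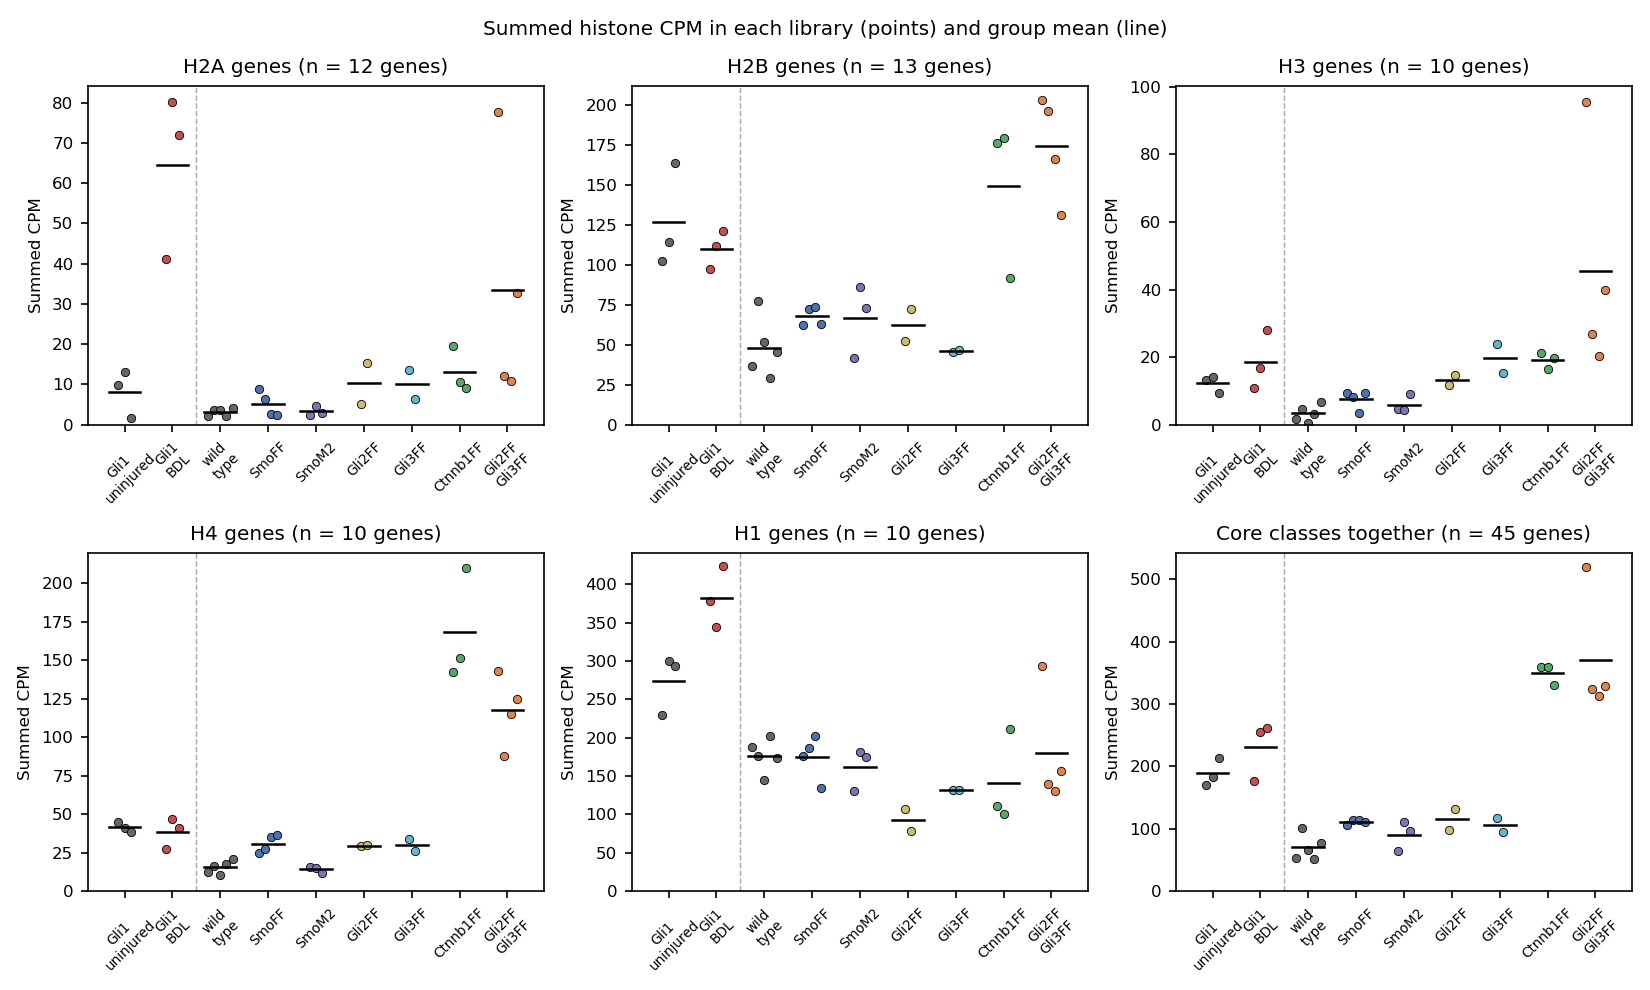
Summed CPM (y axis, linear from 0) of the H2A, H2B, H3, H4 and H1 genes and of the 4 core classes together, 1 panel each, in every library (points) of the 9 groups, with the group mean (line); a dashed line parts the Gli1 from the Pdgfra libraries, which were scaled apart. The H4 sums of Ctnnb1FF (142.7 to 210.1 CPM) and Gli2FFGli3FF (87.6 to 142.8 CPM) lie above all other Pdgfra libraries, and the H2A sums of ligated ducts (41.2 to 80.2 CPM) above the uninjured ones.

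Floxed alleles of both Gli2 and Gli3 went with higher core histone RNA. The summed core histone level (H2A, H2B, H3 and H4) was 519.3, 323.2, 312.6 and 329.1 CPM in Gli2FFGli3FF and 53.0, 101.8, 66.0, 52.1 and 77.3 CPM in wild type. The groups did not overlap, replicate 1 stood above the other Gli2FFGli3FF libraries, and the means were 371 ± 99.1 CPM (SD, n = 4) and 70.0 ± 20.5 CPM (SD, n = 5). With the quasi-likelihood test of edgeR and p-values adjusted by Benjamini-Hochberg over all genes tested, 28 of 51 tested histone genes rose and 1, H1f0, fell at an adjusted p under 0.05, where 17.2% of all genes were called, 7.6% higher and 9.56% lower. By class, 8 of 10 H2A, 4 of 13 H2B, 8 of 10 H3, 6 of 10 H4 and 2 of 8 H1 genes rose. Of those tested, 27 of 44 on chromosome 13 and 1 of 4 on chromosome 3, H2ac20, rose. In 26 genes every Gli2FFGli3FF library lay above every wild type library (8.75% of all genes did so) and in 1 every one lay below (10.7%). The median log2 change of the tested histone genes was 3.28, beside −0.35 over all genes. Of the 51, 22 did not have 10 reads in at least 2 wild type libraries and so passed the filter on low counts through other groups. Of the 29 called genes 17 are among them: H1f5, H2ac4, H2ac7, H2ac8, H2ac10, H2ac12, H2ac13, H2ac15, H2bc15, H3c1, H3c2, H3c3, H3c4, H3c8, H3c10, H3c11 and H4c12. The counts, and the calls of these 17, are thus a description and no support for a difference.

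The H4 genes encode 1 protein from many gene copies. H4c4 (chr13:23581568-23581969) was at 48.3, 36.1, 44.8 and 60.1 CPM in Gli2FFGli3FF and at 5.75, 5.05, 4.53, 10.7 and 8.98 CPM in wild type, with no overlap. Its log2 change was 2.75 ± 0.27 (SE), with an adjusted p of 4.19e-07. H4c1, whose stem-loop has the TTCTC variant printed above, was at 23.7, 10.9, 22.3 and 20.6 CPM against 0.128 to 1.59 CPM (median 0.297), also with no overlap (log2 change 5.16, adjusted p = 0.000155). H4c8 was at 27.6, 16.2, 19.3 and 15.8 CPM, above its wild type libraries at 0.428 to 4.32 CPM (median 1.48; log2 change 3.49). H4c3, H4c12 and H4c11 rose too. H4c14, the H4 gene of the chromosome 3 cluster, was at 1.42, 2.34, 1.66 and 1.43 CPM and overlapped its wild type range of 2.14 to 3.74 CPM.

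Among H2B genes, the copies that rose were H2bc4, H2bc8, H2bc12 and H2bc15. H2bc4, whose annotated transcript holds no stem-loop, was at 146, 167, 136 and 97.0 CPM against 23.6, 59.8, 39.8, 18.7 and 32.9 CPM in wild type. The groups did not overlap, and the log2 change was 1.97 ± 0.31 (SE; adjusted p = 0.000144). H2bc12 was at 15.99, 8.01, 8.04 and 5.48 CPM, above all wild type libraries at 0.63 to 1.54 CPM (median 0.997; log2 change 3.09). H2bc21 of the chromosome 3 cluster was listed at 0 in replicate 1 and at 1.84 to 4.34 CPM in the others, within its wild type range of 1.54 to 5.60 CPM.

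The H3 and H2A genes moved by more on the log scale, from levels near 0. Of those given here, all but H2ac20 passed the filter through other groups, so their calls are no support for a difference. H3c11 was at 20.4, 4.08, 4.36 and 3.77 CPM, and its 5 wild type libraries held 10 reads in all, at 0 to 0.3 CPM, with no overlap (adjusted p = 0.00159). H3c2 was at 11, 1.81, 1.78 and 4.34 CPM, also without overlap with wild type at 0.0371 to 0.169 CPM (log2 change 5.99, adjusted p = 0.000677). H3c8 had no read in any wild type library and was at 3.37, 0.151, 0.798 and 0.742 CPM, at least 59.3-fold higher against a floor of 3 counts over the wild type group. For H3c1 and H2ac15, with 1 wild type read each, no fold is given. H2ac20 was at 11.1, 4.04, 6.20 and 5.65 CPM against 0.482, 2.78, 0.812, 0.916 and 1.15 CPM in wild type, with no overlap (log2 change 2.45, adjusted p = 0.0124). H2ac7 was at 10.2, 1.89, 0.675 and 4.45 CPM, all above the wild type libraries at 0.128 to 0.593 CPM (log2 change 3.86).

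One library carried part of the H2A and H3 values. Replicate 1 of Gli2FFGli3FF had a summed H2A level of 77.6 CPM and H3 level of 95.5 CPM, and the other 3 had 12.2, 10.8 and 32.8 CPM of H2A and 26.9, 20.3 and 39.7 CPM of H3. The same library had the highest sums of immune markers (392 CPM, beside 18.2, 17.6 and 128 CPM) and of G2 and mitosis genes (370 CPM, beside 117, 19.9 and 222 CPM), whose part in its histone levels was not tested. Without it 21 genes were called. H2ac4, H2ac7, H2ac10, H2ac12, H2ac13, H2bc15 and H3c3 each lost their call without replicate 1, with adjusted p from 0.0514 for H2ac4 to 0.174 for H2ac10, and H3c1 was no longer tested. H4c11 lost its call without wild type replicate 1 (adjusted p = 0.0515). H4c4, H4c8, H4c3, H4c1, H2bc4, H2bc12, H1f4 and H1f0 were called in each of 9 fits that left out 1 library. Without all 7 libraries that held both Xist and Y-linked RNA, replicate 2 alone stood for Gli2FFGli3FF, its spread taken from the other groups. That library had Xist at 46.3 CPM and Y-linked genes at 1.74 CPM, so that sex-linked RNA still set it apart from every wild type library. In that fit the log2 change of H4c4 was 2.45 and that of H2bc4 2.33.

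**Figure D2:**
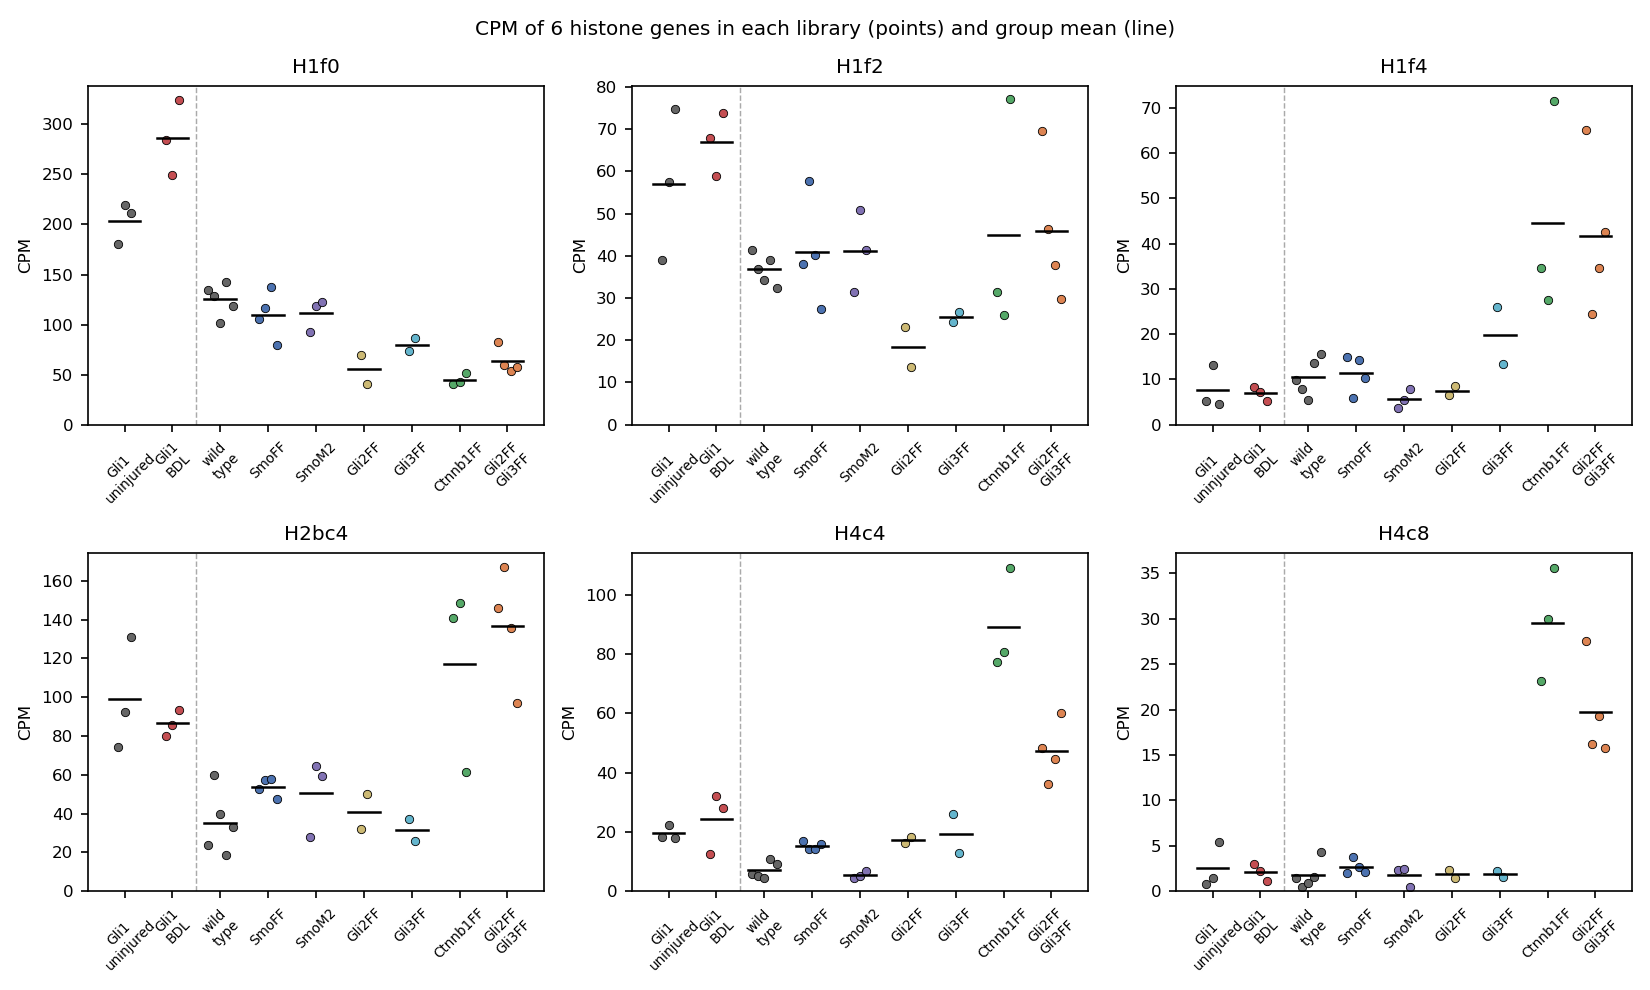
CPM (y axis, linear from 0) of H1f0, H1f2, H1f4, H2bc4, H4c4 and H4c8 in every library (points) of the 9 groups, with the group mean (line); a dashed line parts the Gli1 from the Pdgfra libraries, which were scaled apart. In Ctnnb1FF and Gli2FFGli3FF, H1f4, H2bc4, H4c4 and H4c8 lie above and H1f0 below the 5 wild type libraries.

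Floxed alleles of beta-catenin went with higher H4, H3, H2B and H2A sums, and with lower H1f0. The summed H4 level was 142.7, 151.6 and 210.1 CPM in Ctnnb1FF and 12.7, 16.4, 10.3, 17.7 and 20.7 CPM in wild type, so that the groups stood far apart. The H3 sum was 21.1, 16.5 and 19.8 CPM against 0.556 to 6.55 CPM, without overlap. The H2B sum was 176.4, 179.8 and 91.7 CPM against 29.1 to 77.3 CPM, also without overlap. Scaled by reads outside the ribosomal RNA locus instead, the H2B sums overlapped. Ctnnb1FF replicate 3 was then at 101.5 and wild type replicate 2 at 103.7. The core sum was 359.9, 358.5 and 330.8 CPM, or 350 ± 16.4 CPM (SD, n = 3). By edgeR's test 19 of 51 genes rose and 1 fell, where 19.9% of all genes were called, 8.04% higher and 11.9% lower. Of these, 8 of 10 H4, 5 of 10 H3, 2 of 10 H2A, 2 of 13 H2B and 2 of 8 H1 genes rose. Of the 20 called genes, 8 did not have 10 reads in at least 2 wild type libraries and passed the filter through other groups (H1f5, H2ac15, H3c1, H3c2, H3c10, H3c11, H4c2 and H4c12). The calls of these 8 are no support for a difference. In 24 genes the Ctnnb1FF libraries all lay above wild type (9.99% of all genes) and in 3 all below (15.2%). The median log2 change was 2.23, beside −0.61 over all genes. These comparisons share their wild type libraries with those of the other Pdgfra genotypes.

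H4c4 was at 77.5, 80.7 and 109 CPM in Ctnnb1FF, above all wild type libraries (5.75, 5.05, 4.53, 10.7 and 8.98 CPM). Its log2 change was 3.66 ± 0.29 (SE; adjusted p = 3.51e-08). H4c3, whose promoter is printed above, was at 24.6, 25.5 and 25.9 CPM against 0.964, 0.77, 0.342, 0.566 and 1.32 CPM, a log2 change of 4.99 ± 0.64 (SE; adjusted p = 9.97e-06). Its 3 Ctnnb1FF libraries were nearly equal and far above wild type. H4c8 was at 23.1, 29.9 and 35.6 CPM, also without overlap (log2 change 4.08). H4c12, H4c11, H4c6, H4c1 and H4c2 rose from wild type sums of 22, 65, 30, 79 and 3 reads. H4c9 and H4c14 were not called.

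H2bc4 was at 141, 148 and 61.3 CPM, with its lowest library just above the highest of wild type, 59.8 CPM (log2 change 1.74 ± 0.33 SE, adjusted p = 0.000677). H2bc8 was at 13.4, 17.5 and 9.30 CPM against 0.593 to 2.87 CPM in wild type (median 1.48; log2 change 2.98). Of the H3 genes, H3c11 was at 3.64, 3.84 and 1.5 CPM and H3c6 at 9.46, 4.90 and 7.75 CPM, both above all wild type libraries. The summed H2A level was 19.6, 10.6 and 9.15 CPM, above all wild type libraries at 2.05 to 4.22 CPM. Among H2A genes H2ac20 rose (7.62, 6.54 and 4.95 CPM; log2 change 2.37), as did H2ac15 from 1 wild type read. H2ac7, at 0.168, 0.274 and 0.1 CPM, overlapped wild type at 0.128 to 0.593 CPM. H2bc21 was at 1.23, 0 and 0 CPM, below all wild type libraries at 1.54 to 5.60 CPM, without being called.

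The calls of Ctnnb1FF varied with its libraries and with the controls. Leaving out 1 library at a time gave 14 to 18 called genes. With wild type replicates 1 to 3 as the only controls 12 genes were called, and with replicates 4 and 5 only 10. H4c4, H4c3, H4c8, H2bc4, H2bc8, H1f4 and H1f0 were called in each of 8 fits that left out 1 library, as were H2ac15, H2ac20, H3c2, H3c6, H3c11 and H4c12. Of these, H2ac15, H3c2, H3c11 and H4c12 passed the filter through groups other than wild type, so their repeated calls are no support for a difference. H4c1 lost its call without Ctnnb1FF replicate 3 (adjusted p = 0.102), and H1f5 (up to 0.0937), H3c1, H3c10, H4c2, H4c6 and H4c11 lost theirs in 4 or more of the 8.

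**Figure D3:**
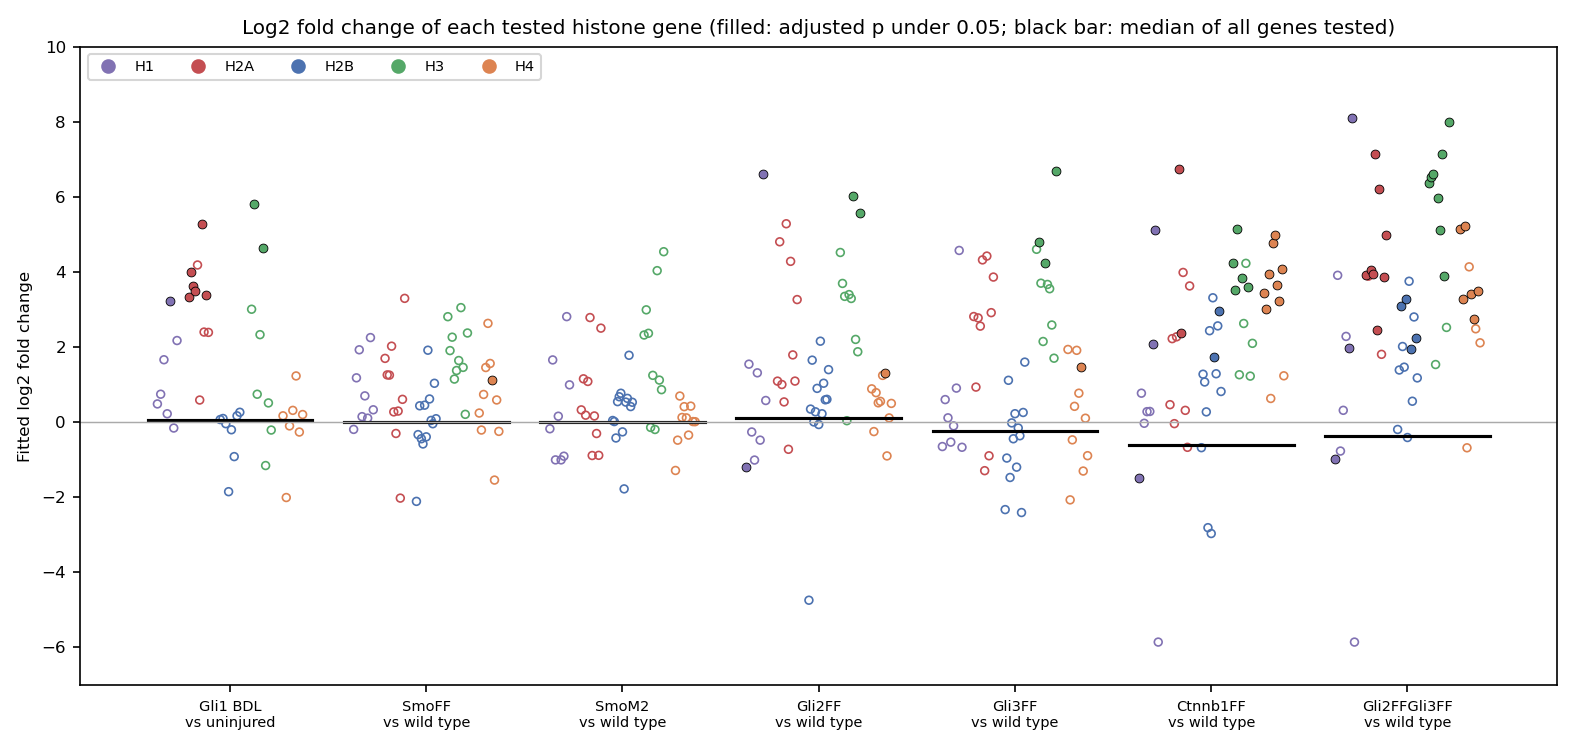
Fitted log2 change (y axis) of each tested histone gene (points, coloured by class) in the 7 comparisons; filled points have an adjusted p under 0.05 in edgeR, and black bars are the median of all genes tested. Filled points number 29 in Gli2FFGli3FF, 20 in Ctnnb1FF and 9 after ligation, 6 of the last being H2A genes; fitted changes of genes with few control reads depend on the prior count.

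Among the linker histones H1f0 fell and H1f4 rose in Ctnnb1FF and Gli2FFGli3FF. H1f0, the replication-independent H1 known to build up in resting and differentiated cells, was at 40.4, 42.6 and 51.9 CPM in Ctnnb1FF and at 135, 128, 102, 143 and 118 CPM in wild type. All 3 libraries lay below wild type, and the log2 change was −1.48 ± 0.22 (SE; adjusted p = 6.05e-05). In Gli2FF it was at 69.7 and 40.5 CPM (log2 change −1.18, adjusted p = 0.00722), and in Gli2FFGli3FF at 82.4, 60.1, 53.1 and 57.9 CPM (−0.98, adjusted p = 0.00134), again below every wild type library. In Gli3FF it was at 73.5 and 86.5 CPM, below wild type but not called. It was at 79.9 to 137 CPM in SmoFF and at 92.2 to 123 CPM in SmoM2, where the groups overlapped wild type.

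H1f2 and H1f4 are replication-dependent linker histones of the chromosome 13 cluster. H1f4 rose in Ctnnb1FF (34.7, 27.6 and 71.5 CPM; log2 change 2.09, adjusted p = 0.00072) and in Gli2FFGli3FF (65.0, 24.6, 34.6 and 42.6 CPM; log2 change 1.99, adjusted p = 0.000798), from 9.79, 7.96, 5.34, 13.5 and 15.7 CPM in wild type. In both genotypes its libraries lay above all wild type ones. H1f2 was not called in any comparison and was at 31.4, 26.0 and 77.1 CPM in Ctnnb1FF and 69.7, 46.3, 37.9 and 29.9 CPM in Gli2FFGli3FF, overlapping wild type at 32.5 to 41.3 CPM. H1f5 was called in Ctnnb1FF, Gli2FF and Gli2FFGli3FF with libraries that disagreed: it was at 44.3, 4.65, 0 and 13.9 CPM in Gli2FFGli3FF and at 0.0948 and 11.05 CPM in Gli2FF, where both groups overlapped wild type at 0 to 0.171 CPM. The summed H1 level was 180 ± 76.8 CPM (SD, n = 4) in Gli2FFGli3FF and 177 ± 21.4 CPM (SD, n = 5) in wild type, and their libraries overlapped. Without H1f0 the H1 sum was 76.9 to 212 CPM in Gli2FFGli3FF, above all wild type libraries (43.1 to 59.8 CPM). That separation depended on the scaling. Scaled by reads outside the ribosomal RNA locus instead, Gli2FFGli3FF replicate 3 was at 85.0, below wild type replicate 4 at 87.3. In Ctnnb1FF the H1 sum without H1f0 was 57.8 to 159 CPM and overlapped wild type. The whole H1 sum of Gli2FF, at 107.5 and 78.9 CPM, and that of Gli3FF, at 131.2 and 131.3 CPM, lay below all wild type libraries (144.8 to 202.8 CPM).

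Fewer genes were called in the single Gli deletions, with 2 libraries each, and in the Smo alleles. In Gli2FF 4 genes rose (H4c4, H1f5, H3c4 and H3c8) and H1f0 fell, of 51 tested, where 5.83% of all genes were called, 2.58% higher and 3.25% lower. In Gli3FF 4 rose (H4c4, H3c2, H3c8 and H3c10), where 4.45% were called, 2.09% higher and 2.36% lower. In SmoFF 1 rose, H4c4, where 1.55% were called, 0.287% higher and 1.26% lower. In SmoM2 0 of 51 were called by edgeR, where 0.205% were, 0.127% higher and 0.0779% lower. In SmoFF 3 genes lay above wild type in every library (2.03% of all genes), and in SmoM2 4 did (4.19% above and 4.22% below among all genes). In Gli2FF 17 genes lay above wild type in both libraries (21% of all genes) and 2 below (13.8%). In Gli3FF 20 lay above (10.8% of all genes) and 2 below (12.8%). Of the called genes, 3 of 5 in Gli2FF (H1f5, H3c4 and H3c8) and 3 of 4 in Gli3FF (H3c2, H3c8 and H3c10) passed the filter through groups other than wild type. Their calls are no support for a difference. At an unadjusted p under 0.05 there were 17 genes in Gli2FF, 19 in Gli3FF, 6 in SmoFF and 4 in SmoM2, and DESeq2 also called 0 in SmoM2. The share of all genes at that unadjusted threshold was not counted, so the unadjusted counts show no excess. A test of any difference among the 7 Pdgfra genotypes called 26 of 51 genes, where 32.8% of all genes were called: 3 H1, 5 H2A, 3 H2B, 8 H3 and 7 H4 genes. Among them H1f5, H2ac4, H2ac7, H2ac12, H2ac15, H3c1, H3c2, H3c3, H3c4, H3c8, H3c10, H3c11 and H4c12 passed the filter through groups other than wild type. This count, and the calls of these genes, are thus a description and no support for a difference.

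H4c4 was called in every genotype but SmoM2. It was at 17.0, 14.1, 14.2 and 15.8 CPM in SmoFF (log2 change 1.12, adjusted p = 0.0303), at 16.2 and 18.4 CPM in Gli2FF (1.30, adjusted p = 0.0138) and at 25.9 and 12.96 CPM in Gli3FF (1.46, adjusted p = 0.00587). All of these lay above the highest wild type library, at 10.7 CPM. In SmoM2 it was at 4.54, 5.19 and 6.92 CPM, within the wild type range. H3c8, without a wild type read, was at 0.0948 and 0.364 CPM in Gli2FF and 0.278 and 0.736 CPM in Gli3FF, at least 10.7-fold and 23.7-fold higher against the floor of 3 counts. Whether H4c4 differs between these genotypes was not tested.

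The summed H4 level, of which H4c4 is a part, rose with it. This sum was 25.1, 27.2, 35.2 and 36.3 CPM in SmoFF, 29.1 and 29.9 CPM in Gli2FF and 33.9 and 25.8 CPM in Gli3FF, all above wild type (10.3 to 20.7 CPM). Without H4c4 it was 8.12 to 21.1 CPM in SmoFF, 11.5 to 12.8 CPM in Gli2FF and 7.99 to 12.8 CPM in Gli3FF. In CPM all of these overlapped wild type at 5.81 to 11.7 CPM. Scaled by reads outside the ribosomal RNA locus instead, both Gli2FF libraries (18.2 and 20.9) lay above wild type (at most 17.6). The core sum of SmoFF, at 105.8, 114.0, 114.7 and 111.1 CPM, also lay above all wild type libraries, and that of SmoM2, at 64.4, 110.0 and 96.9 CPM, overlapped them. Without H2bc4 and H4c4 the core sum of SmoFF was 36.4 to 47.8 CPM and overlapped wild type at 21.7 to 36.9 CPM. The H3 sums of Gli2FF (11.7 and 14.7 CPM) and Gli3FF (24.0 and 15.3 CPM) lay above wild type (0.556 to 6.55 CPM), and those of SmoFF (3.34 to 9.45 CPM) overlapped it. The H2A sums of Gli2FF (5.21 and 15.3 CPM) and Gli3FF (13.6 and 6.34 CPM) also lay above wild type (2.05 to 4.22 CPM). Those of SmoFF (2.29 to 8.74 CPM) overlapped it.

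Calls in groups of 2 to 4 libraries rested on single libraries. In Gli2FF 0 genes were called without its replicate 2, 1 without its replicate 1, 2 without wild type replicate 1, 3 or 4, and 3 without wild type replicate 2. In Gli3FF 0 were called without its replicate 1, 2 without its replicate 2, 1 without wild type replicate 1, 3 or 4, and 2 without wild type replicate 2. The call of H4c4 in SmoFF held in 2 of 9 fits that left out 1 library, with an adjusted p of up to 0.0986 (without wild type replicate 3). Without the 7 libraries that held both Xist and Y-linked RNA, no histone gene was called in SmoFF (H4c4 log2 change 1.01, adjusted p = 0.294) or Gli2FF, and H4c4 alone was called in Gli3FF (1.98, adjusted p = 0.0105).

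After ligation of the duct, H2A genes were the histone class that moved most. The summed H2A level was 41.2, 80.2 and 72.1 CPM in ligated ducts and 9.91, 13.1 and 1.57 CPM in uninjured ones. The groups did not overlap, and the means were 64.5 ± 20.6 and 8.18 ± 5.94 CPM (SD, n = 3 each). By edgeR's test 9 of 40 genes rose and none fell, where 13.6% of all genes were called, 7.77% higher and 5.8% lower. They were 6 of 10 H2A genes (H2ac4, H2ac7, H2ac10, H2ac11, H2ac12 and H2ac13), 2 of 8 H3 genes (H3c3 and H3c11) and 1 of 7 H1 genes (H1f3), all on chromosome 13. In 17 genes the ligated libraries all lay above the uninjured ones (22.3% of all genes did so) and in 2 all below (15% of all genes). The median log2 change was 0.56, beside 0.07 over all genes. Of the 40, 12 did not have 10 reads in at least 2 uninjured libraries, and 6 of the 9 called genes are among them (H1f3, H2ac4, H2ac10, H2ac12, H3c3 and H3c11). These 6 passed the filter through the ligated group in which they are high, and their calls are no support for a difference. The Gli1 libraries were scaled apart from the Pdgfra libraries, so levels are compared within each line.

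H2ac11, whose promoter is printed above, was at 6.78, 16.6 and 14.99 CPM after ligation and at 0.834, 1.44 and 0.101 CPM without it, with no overlap (log2 change 4.00 ± 1.01 SE, adjusted p = 0.0463). H2ac7 was at 5.54, 7.19 and 6.95 CPM against 0.589, 0.918 and 0.355 CPM (log2 change 3.39 ± 0.71 SE, adjusted p = 0.0268). H2ac12 was at 4.92, 8.80 and 8.12 CPM against 0.442, 1.09 and 0.203 CPM, and H2ac13 at 6.32, 5.99 and 6.65 CPM against 0.491, 1.00 and 0.152 CPM. In all 4 the lowest ligated library was several times the highest uninjured one. H2ac8 had more reads, at 8.39, 22.6 and 18.1 CPM against 2.85, 6.42 and 0.0507 CPM, without overlap and without a call. H1f3 was at 3.26, 4.17 and 2.97 CPM against 0.491, 0.35 and 0.253 CPM (log2 change 3.23, adjusted p = 0.0341). H3c11 and H2ac4 had 2 uninjured reads each and were at 1.86, 2.11 and 2.29 CPM and at 0.57, 1.74 and 1.95 CPM after ligation.

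**Figure D4:**
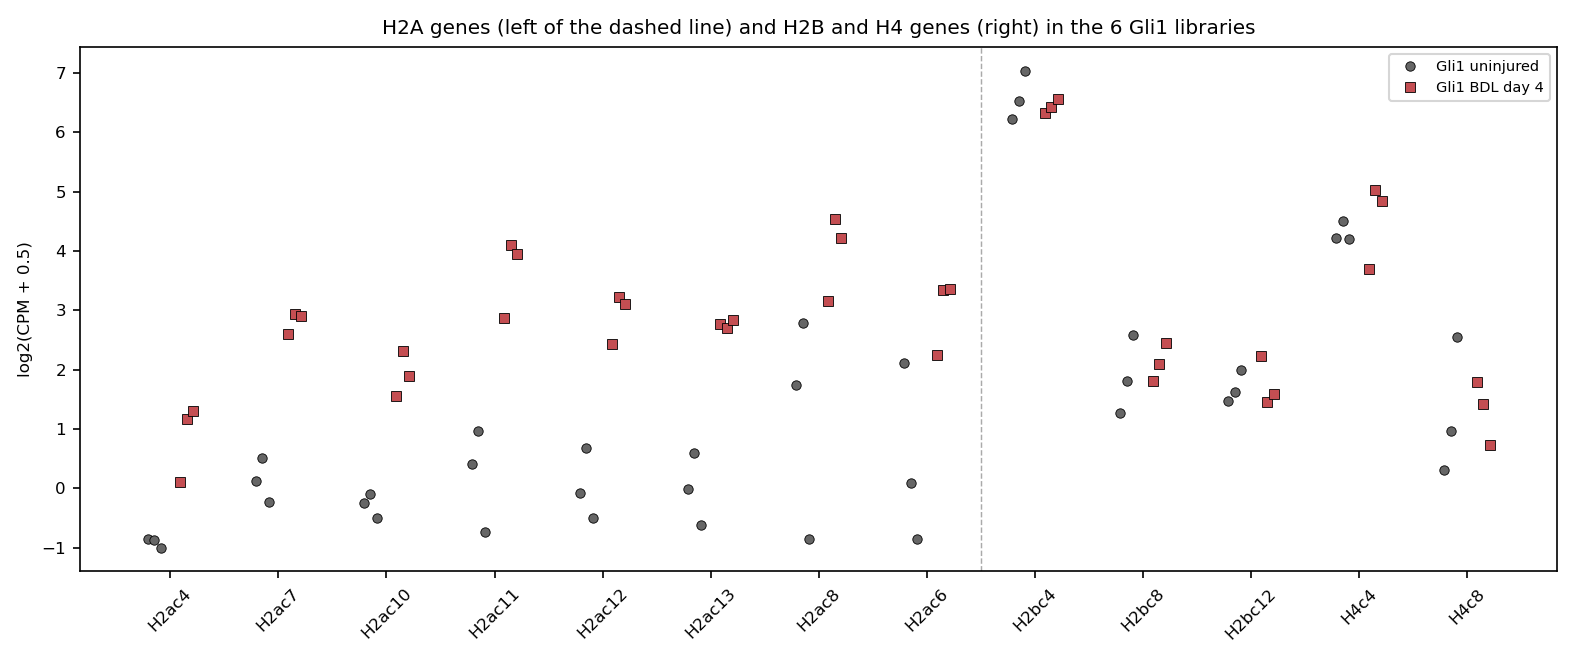
log2(CPM + 0.5) (y axis) of 8 H2A genes, left of the dashed line, and of 5 H2B and H4 genes, right of it, in the 3 uninjured (circles) and 3 ligated (squares) Gli1 libraries. In each H2A gene shown the ligated libraries lie above the uninjured ones, and in each H2B and H4 gene shown they overlap.

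H2B and H4 genes showed no call after ligation. By edgeR 0 of 8 H2B and 0 of 7 H4 genes were called, with 0 and 0 at an unadjusted p under 0.05, and DESeq2 called 0 of 8 and 0 of 7. The summed H2B level was 97.3, 111.8 and 121.1 CPM after ligation and 102.2, 114.7 and 163.9 CPM without it, and the summed H4 level 27.6, 46.7 and 40.8 CPM against 45.2, 40.9 and 38.2 CPM. Both overlapped. H2bc4 was at 80.2, 85.7 and 93.6 CPM against 74.4, 92.4 and 131 CPM, and H4c4 at 12.4, 32.2 and 28.2 CPM against 18.2, 22.2 and 17.99 CPM. H4c14 was at 5.18, 0.578 and 3.42 CPM, below its uninjured libraries at 18.2, 7.17 and 11.5 CPM, without being called. H1f0 was at 284, 250 and 324 CPM against 180, 219 and 212 CPM: the groups did not overlap, and the log2 change of 0.49 was not called (adjusted p = 0.116).

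The calls after ligation depended on all 6 libraries. Without any 1 of the 3 ligated libraries 0 genes were called, and 4, 3 and 5 without uninjured replicate 1, 2 and 3. With no filter on low counts 0 were called, and 1 with a filter at 10 reads summed over the 6 libraries. Of the 9 genes that rose after ligation, 7 were also among the 28 of 51 tested that rose in Gli2FFGli3FF, a comparison with other controls. This was 77.8% of the first list and 25% of the second. All 7 passed the filter in the Pdgfra fit through groups other than wild type. The overlap is thus a description and no support for a shared change.

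Other genes of histone supply were counted from lists chosen with earlier results of these data known. Of 10 tested replacement histones, whose genes are transcribed outside S phase and polyadenylated, 5 rose in Ctnnb1FF (H2az1, H2az2, H2aj, H3f3a and H3f3b) and 4 in Gli2FFGli3FF (the same without H2az2), with none lower. The log2 change of H3f3a was 1.35 and 1.33 in these genotypes, and that of H3f3b 1.01 and 1.16. After ligation 1 rose, H2az1, which encodes H2A.Z (log2 change 1.83, adjusted p = 0.00356). Of 17 genes of histone mRNA processing, Slbp, the stem-loop binding protein, rose in Ctnnb1FF (log2 change 0.78, adjusted p = 0.0103) and in Gli2FFGli3FF (0.63, adjusted p = 0.0266). Ncbp2, a subunit of the cap-binding complex, rose in Gli2FFGli3FF (0.61, adjusted p = 0.0423). Lsm10, a part of the U7 particle, rose in Ctnnb1FF (1.53) and Sympk, a scaffold of the cleavage complex, fell there (−1.20, adjusted p = 0.0191). Npat, the coactivator of the clustered genes, was not called in either genotype (−0.60 and −0.05) or after ligation (0.04). Of 18 histone chaperones 4 rose and 2 fell in Ctnnb1FF, 2 rose and 0 fell in Gli2FFGli3FF, and 1 rose after ligation. The chaperone Npm1 was the gene called after ligation (log2 change 0.96), and it also rose in Ctnnb1FF (0.98) and Gli2FFGli3FF (0.94). Read against the shares of all genes called higher (8.04% in Ctnnb1FF, 7.6% in Gli2FFGli3FF and 7.77% after ligation), the counts of processing factors and chaperones in Gli2FFGli3FF and after ligation are near or below the background.

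Genes of the cell cycle stand beside these values. Of 24 genes of G2 and mitosis, 8 rose and 0 fell after ligation, 22 being higher at an unadjusted p under 0.05, and their sum was 642 to 1572 CPM against 19.3 to 101.5 CPM without ligation. Of 35 genes of DNA replication and S phase, 6 rose and 1 fell, and their sum was 734 to 1214 CPM against 651 to 779 CPM, which overlapped. Of all genes, 7.77% were called higher and 5.8% lower after ligation. In Gli2FFGli3FF, where the core histone sums lay far above wild type, 3 S phase genes rose and 1 fell, with sums of 324 to 406 CPM against 305 to 380 CPM in wild type, beside 7.6% of all genes called higher and 9.56% lower. In Ctnnb1FF 4 rose and 3 fell, with sums of 314 to 387 CPM, beside 8.04% of all genes called higher and 11.9% lower. The counts of S phase genes in both genotypes are near the background. Of the genes of G2 and mitosis 1 rose in each of these genotypes, with sums of 27.3 to 96.8 CPM in Ctnnb1FF, 19.9 to 370 CPM in Gli2FFGli3FF and 18.2 to 65.6 CPM in wild type. At an unadjusted p under 0.05, 6 of these 24 were higher and 0 lower in Gli2FFGli3FF, and 1 was higher and 2 lower in Ctnnb1FF. The share of all genes at the unadjusted threshold was not counted. The part of cycling cells in the histone differences was not tested.

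**Figure D5:**
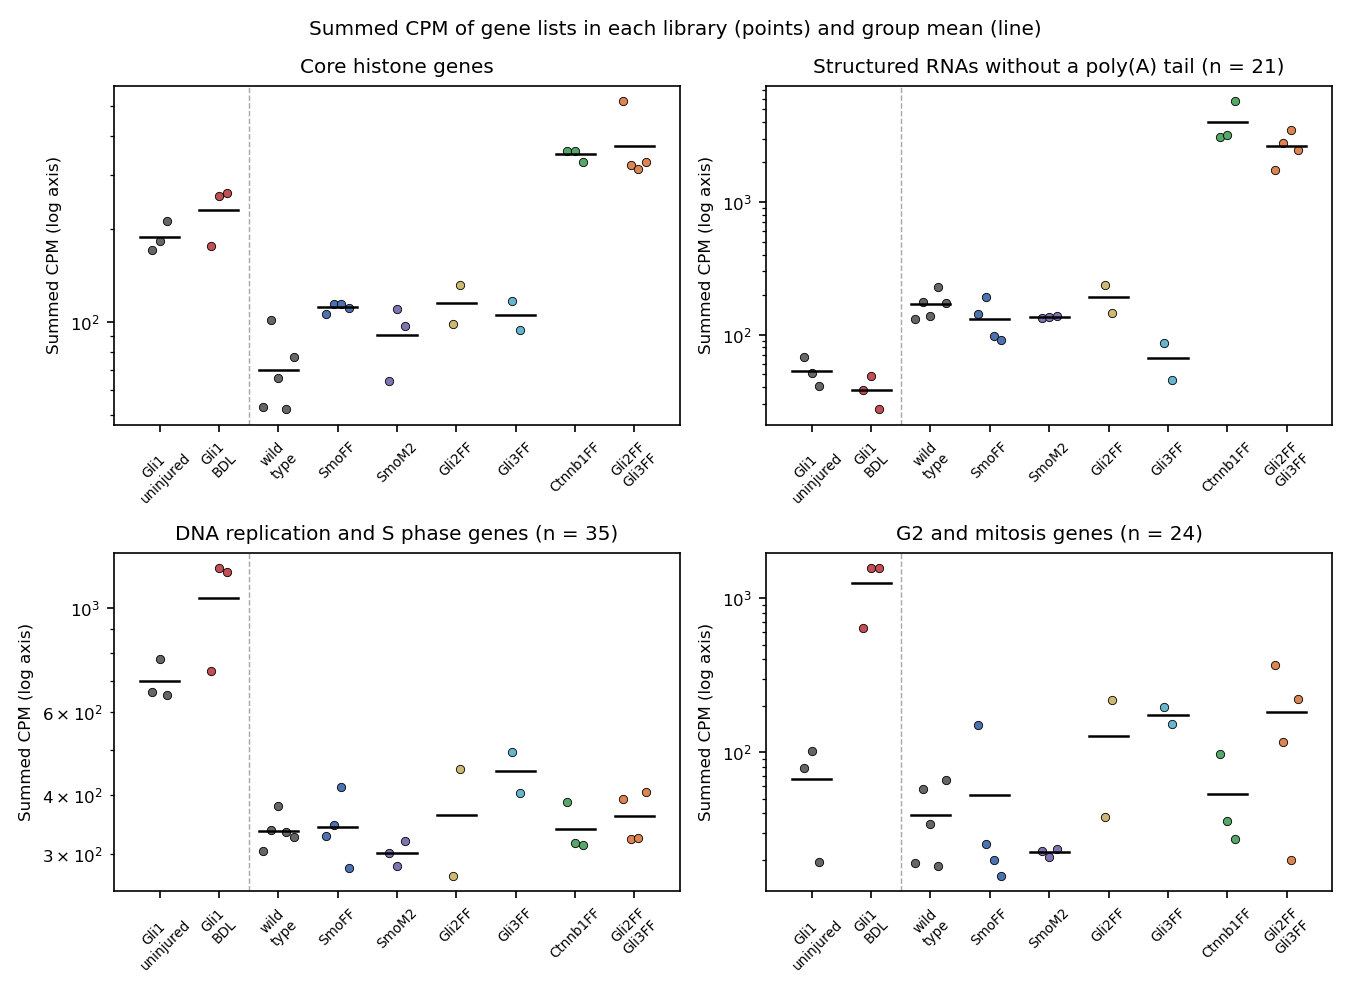
Summed CPM (y axes, log scale) of the core histone genes, of 21 structured RNAs without a poly(A) tail, of 35 DNA replication and S phase genes and of 24 G2 and mitosis genes in every library (points) of the 9 groups, with the group mean (line); a dashed line parts the Gli1 from the Pdgfra libraries. Ctnnb1FF and Gli2FFGli3FF lie above the other Pdgfra libraries in core histones and structured RNAs and overlap wild type in S phase genes.

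RNAs that carry no poly(A) tail stood above wild type in Ctnnb1FF and Gli2FFGli3FF, while their sums overlapped wild type or lay below it in the other genotypes. The sum of 21 structured RNAs of this kind, such as Rn7sk, which holds back transcription elongation, and Rny3, was 131 to 227 CPM in wild type, 3060 to 5723 CPM in Ctnnb1FF and 1740 to 3469 CPM in Gli2FFGli3FF. In both genotypes 7 of 14 tested ones rose and 0 fell by edgeR (DESeq2: 7 rose and 0 fell of 13 with an adjusted p), and the log2 change of Rn7sk was 5.87 and 4.58. Of all genes, 8.04% were called higher in Ctnnb1FF and 7.6% in Gli2FFGli3FF. In Gli3FF, where H4c4, H3c2, H3c8 and H3c10 rose, the sum was 45.3 to 86.7 CPM, below wild type. By edgeR 0 were higher and 4 lower there, beside 2.09% of all genes called higher and 2.36% lower. In SmoFF, whose core sums lay above wild type, it was 90.4 to 192 CPM and overlapped wild type, with 0 called by edgeR and 1 higher and 4 lower at an unadjusted p under 0.05 (DESeq2: 0 higher and 3 lower). After ligation 0 of 8 were called by edgeR, with 1 lower at an unadjusted p under 0.05, and DESeq2 called 0 higher and 1 lower, and their sums were 27.4 to 48.8 CPM against 40.6 to 68.1 CPM. Genes detected per library were 15892 to 17726 in Ctnnb1FF, 17508 to 20055 in Gli2FFGli3FF and 21127 to 24483 in wild type. Their part in the histone differences was not tested.

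Cell type markers moved in the same comparisons. Fibroblast markers (6 genes, among them Col1a1, Col3a1 and Dcn) were high in every group, with sums of 16564 CPM or more in every library. Their sums still differed between groups. They were 16564 to 18964 CPM in SmoFF and 19085 to 19562 CPM in Gli2FF, below all wild type libraries (24188 to 33432 CPM). In Gli3FF they were 36015 to 42518 CPM, above wild type. After ligation they were 51385 to 56399 CPM against 31081 to 36878 CPM. After ligation the sum of 5 smooth muscle and pericyte markers was 334 to 525 CPM against 8.78 to 43.0 CPM, and that of 6 mesothelial markers 58.6 to 95.2 CPM against 266 to 854 CPM. That of 6 endothelial markers was 3.08 to 12.7 CPM against 118 to 161 CPM. In Gli2FFGli3FF the 8 immune markers had sums of 17.6 to 392 CPM against 4.75 to 69.0 CPM in wild type, and the smooth muscle and pericyte markers 72.5 to 151 CPM against 25.2 to 48.5 CPM. Mesothelial markers were at 18.4 to 99.7 CPM in Ctnnb1FF against 121 to 264 CPM in wild type, and at 399 to 833 CPM in SmoFF. In Gli3FF mesothelial markers were at 28.8 to 36.4 CPM (4 of 6 called lower, beside 2.36% of all genes). Endothelial markers were there at 1.11 to 3.36 CPM against 56.2 to 87.8 CPM in wild type, and 7 cholangiocyte markers at 4.97 to 7.91 CPM against 51.6 to 80.3 CPM. Smooth muscle and pericyte markers were at 110.1 to 129.7 CPM in Gli3FF. Their part in the histone differences was not tested.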

How the data were processed

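RNA of about 1000 sorted mesenchymal cells per animal was sequenced in 29 libraries after a Smart-seq3 protocol, per the labels' protocols. The authors deposited count tables (whole reads for each gene), and mm10 is the build per the submitters' processing notes. The aligner, counter, annotation, strand setting and treatment of reads that match several genes were not given in the sources used here, which bears on near-identical histone genes. Group and replicate came from the labels, which take each library from its own animal.

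From the counts, CPM and tests were computed with edgeR 4.0.16 (R 4.3.3) after TMM scaling: filterByExpr, a quasi-likelihood fit over all genes, and Benjamini-Hochberg adjustment over all genes tested, with calls at an adjusted p under 0.05. The 6 Gli1 and the 23 Pdgfra libraries were fitted apart, without covariates. Sums over a class carry no test, and were also scaled by reads outside the ribosomal RNA locus. The fits were tested on simulated data. Of the 55 genes, 40 passed the filter in the Gli1 fit and 51 in the Pdgfra fit.

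The genes and lists were chosen with earlier results of these data known. Named were genes called in a comparison, the 3 with the most reads per class, those nearest the limit of 10 reads, the targeted genes, and up to 4 called genes per list. Others were named for contrast after their values were seen, such as H2bc21. No 2 libraries of a group were identical (36 pairs). Alternatives were RLE scaling, DESeq2 1.42.0, other filters, a replicate block, other controls, only the groups compared, leaving out each library, and, added after seeing the data, leaving out the 7 libraries with both Xist and Y-linked RNA. Total counts of 15021796 to 38301189 per library set the counting precision. Shared 50-base stretches and stem-loops came from GENCODE M21 transcripts and promoters from RefSeq (GRCm38.p6). Figures were drawn with matplotlib 3.10.9.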

Additional observations from a re-analysis of the deposited data

Results flagged for a closer look

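In wild type, SmoFF and Gli2FFGli3FF, the groups of 4 or more libraries, class sums and single genes were checked for a value far from the others. Of 60 such checks 3 held one, and chance alone gives about 1 in 20. The checks overlap, since the class sums hold the single genes. The summed H1 level of Gli2FFGli3FF replicate 1 was 294.1 CPM, beside 130.0 to 156.1 CPM in the other 3 libraries. H2ac20 was at 2.781 CPM in wild type replicate 2, beside 0.482 to 1.15 CPM in the other 4. H4c8 was at 4.322 CPM in wild type replicate 5, the library that 1 label describes with the SmoFF allele, beside 0.428 to 1.51 CPM in the other 4.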

How the results depend on the processing

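Counts of called histone genes changed with the processing as follows, and none of the 68 named gene results reversed its direction under any alternative run. After ligation (9 called) there were 0 with no filter, 1 with the filter at 10 reads, 0 with the replicate block, and 0 to 5 when 1 library was left out. In SmoFF (1) there were 0 with wild type replicates 4 and 5 only, 0 with only the 2 groups fitted, 0 without the libraries holding both Xist and Y-linked RNA, and 0 to 1 with 1 library left out. In SmoM2 all settings gave 0 by edgeR and by DESeq2, beside 4 at an unadjusted p under 0.05. In Ctnnb1FF (20) there were 12 with wild type replicates 1 to 3, 10 with replicates 4 and 5, and 14 to 18 with 1 library left out. In Gli2FF (5) there were 8 with DESeq2, 2 with the replicate block, 2 with wild type replicates 1 to 3, 0 with replicates 4 and 5, 3 with only the 2 groups fitted, 0 without the libraries holding both sex-linked RNAs, and 0 to 4 with 1 library left out. In Gli3FF (4) there were 8 with DESeq2, 1 with the replicate block, 0 with wild type replicates 4 and 5, 0 with only the 2 groups fitted, 1 without the libraries holding both, and 0 to 5 with 1 left out. In Gli2FFGli3FF (29) there were 13 with wild type replicates 4 and 5, 4 without the libraries holding both, and 21 to 30 with 1 left out. For any genotype (26) there were 10 without the libraries holding both, and 20 to 30 with 1 left out. Class sums depended on the scaling as well. Scaled by reads outside the ribosomal RNA locus, the H2B sum of Ctnnb1FF overlapped wild type. The H1 sum without H1f0 of Gli2FFGli3FF did so too, and the H4 sum without H4c4 of Gli2FF no longer did. The causes were not tested.

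Of the 68 gene results, all 68 held their call with RLE scaling, 46 with no filter, 53 with the filter at 10 reads and 42 with the replicate block. With 1 library left out, 34 held in every fit that tested the gene. Among these 34, H3c1 in Gli2FFGli3FF was tested in 8 of 9 such fits. Of 59 in the Pdgfra line, 37 held with wild type replicates 1 to 3, 22 with replicates 4 and 5, and 21 without the libraries holding both sex-linked RNAs. Of 44, 37 held with only the 2 groups fitted, and all 67 with an adjusted p held with DESeq2. Same-numbered libraries did not deviate together in every pair (correlations of −0.33 to 0.22). Against wild type, 3 of 4 shared numbers in SmoFF correlated above 0.1, and 2 matched best with their own number. In SmoM2, Gli2FF and Gli3FF 1 did so each, and 0 in Ctnnb1FF, in Gli2FFGli3FF and after ligation. With groups this small the correlations cannot settle whether the replicate numbers pair libraries, and the main fits used no pairing. The block gave 1 call in SmoFF, 0 in SmoM2, 15 in Ctnnb1FF, 26 in Gli2FFGli3FF and 23 for any genotype. Groups of 2 to 5 libraries, and control levels under 1 CPM for many core genes, limit what single genes can show.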
